A study of Mus musculus with 6 samples.

Results

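The genes described here are 9 transcription factors of the rhombic lip lineage, namely Zic1, Zic2, Zic4, Zic5, Neurod1, Neurod2, Neurod6, Atoh1 and Atoh7. They were taken from 18194 genes represented on the Affymetrix Mouse 430 array, through the 17 probe sets that the platform annotation assigns to them alone. Each gene is given by its probe set of highest mean, and the 8 other probe sets serve as a check. The genes were chosen on their log2 levels in the ventral cochlear nucleus (VCN) against the other nuclei, so their excess in VCN is a description, without a test. Expression had been measured on 6 arrays, 1 for each of 3 auditory brainstem nuclei at 2 ages. The nuclei were VCN, where auditory nerve fibres end, and a pair in the superior olivary complex. These are the lateral superior olive (LSO) and, beside the midline, the trapezoid body's medial nucleus (MNTB). All tissue was from male C57BL/6J mice with no treatment named in the labels, and was taken by forceps from brainstem slices. An array of postnatal day 3 (P3) held RNA of 6 pooled animals and one of postnatal day 14 (P14) that of 3. No combination of nucleus and age was repeated. The age contrast is therefore repeated only over 3 nuclei, and a contrast of nuclei only over 2 ages, so that p-values measure the spread over these arrays and not over animals.

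The rhombic lip is the dorsal edge of the embryonic hindbrain, from which cerebellar granule cells, the excitatory neurons of the cochlear nucleus and neurons of precerebellar nuclei arise. Atoh1 is the basic helix-loop-helix (bHLH) factor that defines progenitors there. Neurod factors are bHLH factors that act later, in differentiating and surviving neurons, and they bind E-boxes, short DNA elements of the letters CANNTG. Zic factors are zinc finger proteins of the dorsal neural tube that hold granule cell precursors in a proliferating state. They are also made by cells of the meninges.

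Promoters of 5 of the genes are shown, since all 5 were high together in VCN, and they cover the 3 families and the neighbouring pair Zic1 and Zic4. Each runs from 250 bases before to 50 after the gene's start, 5′ to 3′, from RefSeq on build GRCm38.p6, with E-boxes in capitals.
Zic1, chr9:91365719-91366018, minus strand: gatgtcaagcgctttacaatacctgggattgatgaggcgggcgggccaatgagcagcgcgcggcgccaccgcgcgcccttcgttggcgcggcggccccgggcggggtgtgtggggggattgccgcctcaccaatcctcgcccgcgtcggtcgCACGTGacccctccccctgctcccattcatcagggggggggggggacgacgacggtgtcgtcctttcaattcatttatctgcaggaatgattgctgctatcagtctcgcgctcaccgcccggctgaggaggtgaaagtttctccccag
Zic4, chr9:91368722-91369021, plus strand: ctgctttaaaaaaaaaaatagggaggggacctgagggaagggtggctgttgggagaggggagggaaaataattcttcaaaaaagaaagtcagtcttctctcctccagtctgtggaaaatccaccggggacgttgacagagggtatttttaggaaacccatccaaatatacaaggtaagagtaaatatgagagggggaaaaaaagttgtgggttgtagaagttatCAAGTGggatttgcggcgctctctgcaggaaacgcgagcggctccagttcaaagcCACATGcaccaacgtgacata
Neurod1, chr2:79456587-79456886, minus strand: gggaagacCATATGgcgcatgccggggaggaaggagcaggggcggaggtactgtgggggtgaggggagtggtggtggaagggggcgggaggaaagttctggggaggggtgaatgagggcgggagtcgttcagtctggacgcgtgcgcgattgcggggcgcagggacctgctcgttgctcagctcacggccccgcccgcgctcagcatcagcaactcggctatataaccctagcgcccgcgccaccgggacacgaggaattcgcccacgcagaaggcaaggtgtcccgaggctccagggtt
Neurod2, chr11:98329596-98329895, minus strand: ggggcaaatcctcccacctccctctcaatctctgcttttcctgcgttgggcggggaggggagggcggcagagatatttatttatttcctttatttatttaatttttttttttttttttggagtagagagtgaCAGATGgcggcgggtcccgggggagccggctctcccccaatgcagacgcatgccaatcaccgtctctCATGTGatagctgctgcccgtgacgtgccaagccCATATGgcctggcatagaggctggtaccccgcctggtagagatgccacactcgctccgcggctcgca
Atoh7, chr10:63099535-63099834, plus strand: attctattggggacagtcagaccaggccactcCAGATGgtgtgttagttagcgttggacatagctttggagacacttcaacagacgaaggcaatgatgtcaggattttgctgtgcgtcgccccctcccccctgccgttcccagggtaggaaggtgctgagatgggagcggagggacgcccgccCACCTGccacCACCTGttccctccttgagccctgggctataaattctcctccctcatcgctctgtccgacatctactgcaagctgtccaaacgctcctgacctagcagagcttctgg
Zic1 and Zic4 are neighbours among protein-coding genes on chromosome 9, and Zic2 and Zic5 on chromosome 14. In the promoter of Zic1 the single E-box reads CACGTG. That of Neurod1 reads CATATG. The same letters stand in the promoter of Neurod2, which also holds the element CAGATG and a further E-box. The Atoh7 promoter has 3 E-boxes, among them CAGATG. No E-box was found in that of Atoh1, which is not shown. The search was for CANNTG, which covers both strands. An E-box stood in 7 of the 8 member promoters in the table, and in 72.3% of all 32851 promoters of the same length. CAGATG, searched on both strands and part of the E-box count, was in 2 of the 8 and in 17.2% of all. CATATG was in 2 of the 8 and in 3.91% of all. The guanine and cytosine content of the 8 promoters ran from 46.0% to 66.7%, with a median of 56.8%, beside 52.7% for all promoters. These matches describe letters and not binding.

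The values are log2 expression values. Probe sets for a bacterial transcript that is not added to samples lay between 2.84 and 4.42, which is used here as the range of background. Array medians were 6.27 to 6.31. The transthyretin gene Ttr of the choroid plexus was at 12.58 in VCN at P14, and on the other 5 arrays at 6.61 to 6.93. En1, a homeobox gene of the lineage that forms MNTB neurons, lay at 3.21 and 2.93 in VCN, within background, and at 5.82 to 7.10 on the LSO and MNTB arrays. In such tissue samples fewer cells of a type and less RNA per cell cannot be told apart.

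Zic1, which controls the number of granule cell precursors, stood in VCN at 12.45 at P3 and at 11.84 at P14. In LSO it was at 7.29 and 8.69, and in MNTB at 6.14 and 7.32. Both VCN arrays lay above all 4 others, and each LSO array lay above the MNTB array of the same age. VCN exceeded the mean of LSO and MNTB by 5.74 at P3, a 53.3-fold difference, and by 3.83 at P14, which is 14.2-fold. Zic2, which patterns the forebrain midline and keeps some retinal axons from crossing, was at 11.14 and 9.83 in VCN, at 6.36 and 7.84 in LSO and at 5.73 and 7.05 in MNTB at P3 and P14. Its groups did not overlap either, but the excess of VCN was 5.09 at P3 and 2.38 at P14.

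Zic4, which acts with its neighbour Zic1 in cerebellar growth, was at 9.37 in VCN at P3 and at 6.73 at P14. In LSO it was at 4.14 and 4.45 and in MNTB at 3.97 and 4.09, so that 3 of these 4 arrays were within background. With values floored at 4.47, the 25th percentile of all values, VCN was higher than both other nuclei by at least 4.90 at P3 and by at least 2.26 at P14. Zic5, needed for normal neural crest formation, was at 10.64 and 8.89 in VCN and at 6.61 and 6.86 in LSO. In MNTB it was at 4.12 at P3, within background, and at 4.59 at P14. Its excess in VCN was at least 5.10 at P3 on floored values and 3.17 at P14. Measured without a floor, the excess of the 4 Zic genes ran from 5.09 to 5.74 at P3 and from 2.38 to 3.83 at P14, and these ranges did not overlap.

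**Figure D1:**
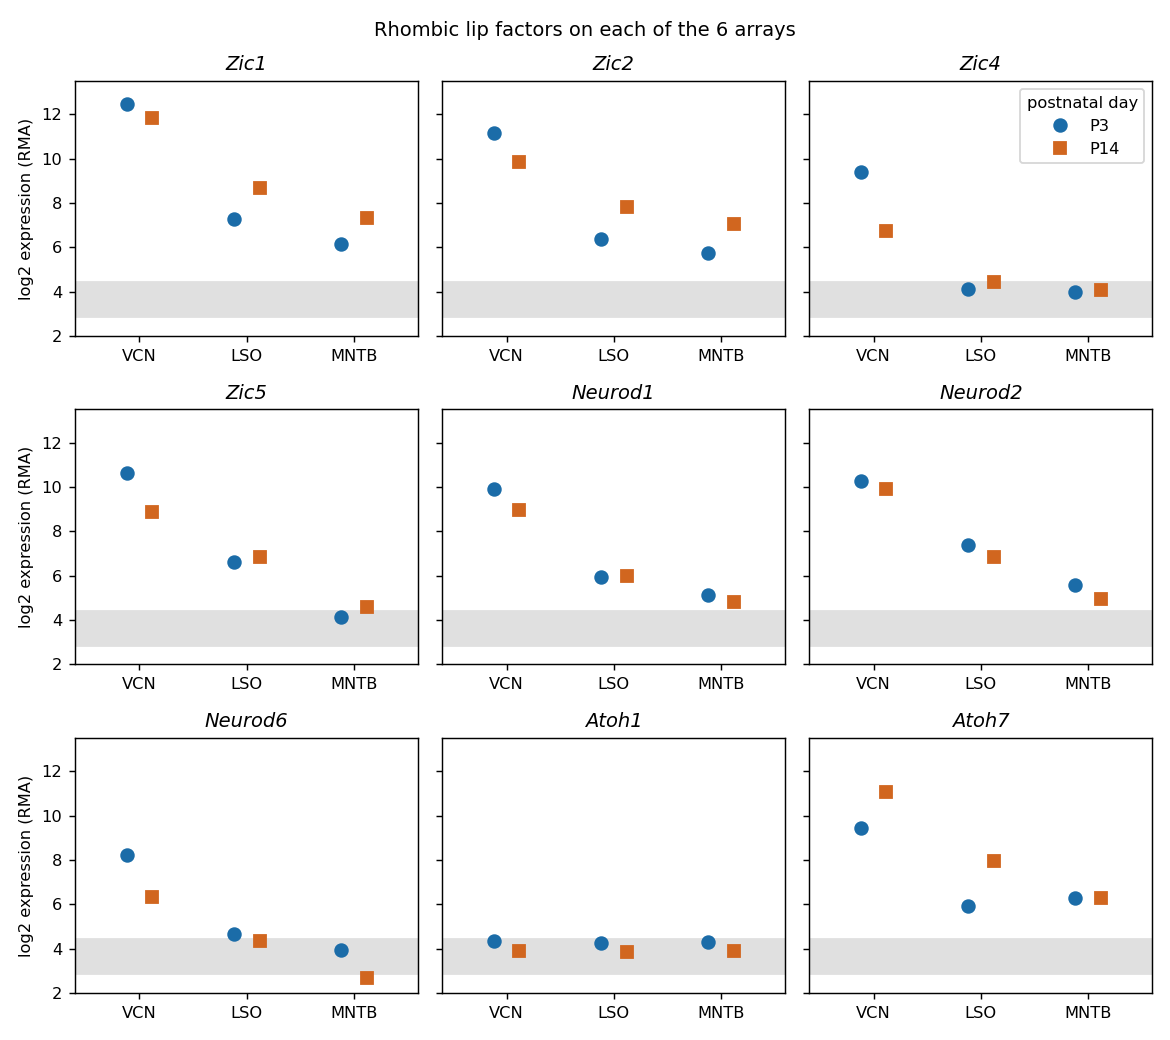
Log2 expression of the 9 factors by nucleus, with circles for P3 and squares for P14, 1 array per point, and the background range of 2.84 to 4.42 shaded. For 8 genes both VCN points lie above the other 4, whereas Atoh1 lies within background throughout.

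Neurod1, which granule cells and inner ear neurons need to differentiate and survive, was at 9.90 in VCN at P3 and at 8.97 at P14. In LSO it was at 5.92 and 6.00, and in MNTB at 5.12 and 4.84. The excess of VCN over the mean of the others was 4.38 at P3 and 3.56 at P14. Neurod2, a factor of maturing excitatory neurons, was at 10.27 and 9.91 in VCN, at 7.40 and 6.86 in LSO and at 5.60 and 4.96 in MNTB. The nuclei kept the order VCN, LSO, MNTB at both ages, and the excess of VCN was 3.77 and 4.01. Neurod6, known from forebrain projection neurons, was at 8.20 and 6.35 in VCN and at 4.66 and 4.32 in LSO. In MNTB it was at 3.92 at P3, within background, and at 2.69 at P14, below it. On floored values VCN exceeded MNTB by at least 3.73 at P3 and 1.87 at P14.

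The Atoh genes differed from each other. Atoh1 was at 4.36, 4.25 and 4.28 in VCN, LSO and MNTB at P3 and at 3.90, 3.86 and 3.90 at P14. All 6 values were within background, so no difference is given for it. Atoh7, known as Math5 and made in retinal ganglion cells and in bushy cells of the cochlear nucleus, was at 9.46 in VCN at P3 and at 11.07 at P14. In LSO it was at 5.92 and 7.93, and in MNTB at 6.28 and 6.29. Its excess in VCN was 3.35 at P3 and 3.96 at P14. The second probe set of Atoh7 did not show this, with all 6 arrays between 6.44 and 6.69.

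**Figure D2:**
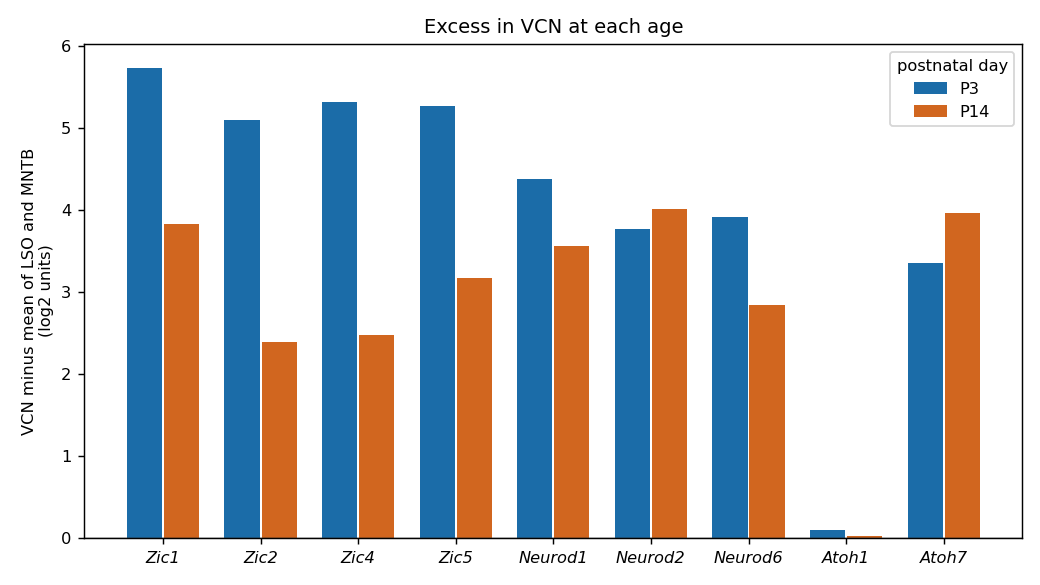
VCN minus the mean of LSO and MNTB in log2 units for each factor, 1 bar per age, from single arrays without error bars. The bars of the 4 Zic genes drop from between 5.09 and 5.74 at P3 to between 2.38 and 3.83 at P14. Those of Neurod1 (4.38 to 3.56) and Neurod6 (3.92 to 2.84) drop as well, while those of Neurod2 and Atoh7 do not. Background values in LSO or MNTB make the bars of Zic4, Zic5 at P3 and Neurod6 too exact, and the bounds in the text apply.

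Of the 9 genes, 8 had both VCN arrays above all other arrays, beside 2.97% of the 12959 genes tested, and nothing is read from this count because it chose the genes. Among the 17 probe sets it held for 14. The exceptions were Atoh1, the second set of Atoh7, and a set of Neurod2 with values of 4.58 to 5.23. The second set of Zic1 was at 12.51 and 12.05 in VCN, and had a mean excess of 5.19 over the other nuclei beside 4.78 for the first. The second set of Zic4 had an excess of 1.43 beside 3.89, and the weakest set of Zic5 had 1.85 beside 4.22.

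MNTB and LSO were compared next, a contrast that did not enter the choice of the genes. Neurod2 was the single member that passed. MNTB minus LSO was -1.80 at P3 and -1.89 at P14, which gave a fitted difference of -1.85 ± 0.15 (standard error, 2 ages, limma adjusted p = 0.0188). That is 1 of the 6 members tested, beside 0.162% of all genes, of which 21 were lower in MNTB and 0 (0%) higher. At an unadjusted p under 0.05 limma gave 660 lower and 221 higher. Zic5 had a difference of -2.38 (limma adjusted p = 0.336), Zic1 of -1.26 (0.679) and Neurod1 of -0.98 (0.456). Zic2 had -0.71 and Atoh7 -0.64 (adjusted p = 0.942 and 0.906). Zic5 and Neurod1 passed the filter on low values only through their VCN arrays. By sign alone 5 of the 6 members tested were lower in MNTB at both ages, beside 30.8% of the genes tested. The exception was Atoh7, which was higher in MNTB by 0.36 at P3 and had -1.65 at P14. The values of Zic4 and Neurod6 in MNTB were within or below background.

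The difference of Neurod2 did not pass when any single LSO or MNTB array was left out (limma adjusted p = 0.134 to 0.298), nor with the median over its probe sets (-0.31, adjusted p = 0.814). Without either VCN array the fitted differences of Zic1 and Zic5 stayed at -1.26 and -2.38, in fits that hold a single VCN array. Zic5 had entered the tests only through its VCN arrays. Prph, the gene of a neuronal intermediate filament of motor and sensory neurons, passed for MNTB minus LSO in the fit of all arrays. It was at 11.86 and 10.87 in LSO and at 7.69 and 6.24 in MNTB. It did not pass when any one LSO or MNTB array was left out. The part of the cells that express it in the values of Neurod2 was not tested.

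With age, 2 members passed over the 3 nuclei, Atoh7 as higher and Neurod2 as lower at P14. For Atoh7, P14 minus P3 came to 1.62 (VCN), 2.01 (LSO) and 0.01 (MNTB), so that MNTB was level. The fitted rise was 1.21 ± 0.37 log2 units (standard error, 3 nuclei, limma adjusted p = 0.0443). For Neurod2 the differences were -0.35 in VCN, -0.54 in LSO and -0.63 in MNTB, lower in all 3. The fitted difference was -0.51 ± 0.12 (limma adjusted p = 0.0194). That is 1 of 6 tested members in each direction, beside 23.4% of all genes higher and 17.7% lower, or 41% in either. With so many genes passing, the members' count is near the background. By sign, Neurod2 was the 1 tested member that was lower at P14 in all 3 nuclei, beside 31% of the genes tested.

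Both calls depended on single arrays. Atoh7 did not pass without either VCN or either LSO array (limma adjusted p = 0.124 to 0.187), and the median over its probe sets gave 0.58 (0.0784). Neurod2 did not pass without either LSO or either MNTB array (adjusted p = 0.0830 to 0.110).

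The other members tested did not pass for age. Neurod1 had a mean difference of -0.38 (limma adjusted p = 0.191), with -0.93 in VCN, 0.07 in LSO and -0.28 in MNTB. Zic1 had a mean of 0.66 (adjusted p = 0.219), Zic2 of 0.50 (0.490) and Zic5 of -0.34 (0.551). Zic4, Neurod6 and Atoh1 were below the filter on low values and were not tested. Neurod6 had -1.86 in VCN, while its values in LSO and MNTB were within or near background. Without the filter, Neurod6 at -1.14 and Atoh1 at -0.41 passed as lower (limma adjusted p = 0.0335 and 0.0255), the latter among background values. Neurod6 in MNTB and Atoh1 on all arrays were not above background.

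**Figure D3:**
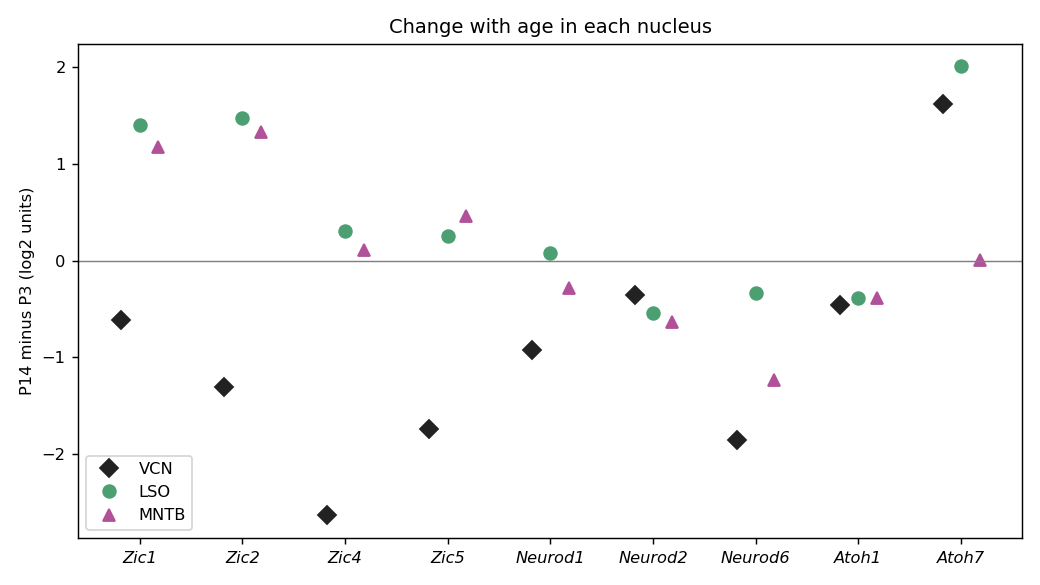
P14 minus P3 in log2 units for each factor and nucleus, 1 difference between 2 arrays per point, without error bars. Zic1 and Zic2 lie below 0 in VCN and above 1 in LSO and MNTB, whereas Neurod2 lies below 0 and Atoh7 at or above 0 in all 3.

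For the Zic genes the sign of the age difference was not the same in all nuclei. Zic1 had a P14 minus P3 difference of -0.62 in VCN, 1.40 in LSO and 1.18 in MNTB. For Zic2 these differences were -1.31, 1.48 and 1.33. Zic1 and Zic2 were thus lower at P14 in VCN, where they were highest, and higher at P14 in the other nuclei. Zic5 had -1.74 in VCN and smaller differences of 0.26 and 0.46 in LSO and MNTB. Zic4 had -2.64 in VCN, and its differences of 0.31 and 0.11 elsewhere were among values at or near background, where floored values give no difference. Lower in VCN and higher in both others were thus 3 of the 6 members tested, beside 3.93% of all genes tested, a count added after these values were seen. Of the 3, Zic5 was within background in MNTB at P3 and passed the filter on low values only through its VCN arrays. Of the 8 Zic probe sets 5 had it, namely both of Zic1, that of Zic2, 1 of the 2 of Zic4 and 1 of the 3 of Zic5.

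A model with a separate age term for VCN, added after these values were seen, took LSO and MNTB as the repetition outside VCN. In it Zic2 passed as lower, with an age difference in VCN minus that in the others of -2.71 ± 0.23 (standard error, limma adjusted p = 0.0380). That is 1 of 6 members tested, beside 0.131% of all genes in either direction, 0.0926% lower and 0.0386% higher. The term sets VCN against LSO and MNTB on the same arrays that chose the genes, so its calls for members are no independent support. Of the 6, Zic5 and Neurod1 had passed the filter on low values only through their VCN arrays. Zic1 at -1.91 (limma adjusted p = 0.0531) and Zic5 at -2.10 (0.0596) did not pass, nor did Neurod1 at -0.82 (0.399), Neurod2 at 0.23 (0.789) and Atoh7 at 0.61 (0.833). Zic4, at -2.85, was not tested. On simulated data this term recovered few of the changes put in, with a false call among its few calls. Its number of calls varied strongly with the draw, and in some draws the share of false calls was above 0.05. The call of Zic2 thus rests on a weak and unstable test. VCN enters with a single pair of arrays, so its own error is taken from LSO and MNTB, with 1 residual degree of freedom.

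The calls of this term moved with the degrees of freedom that limma borrowed from other genes. These were 4.88 here, and 3.45 without the filter on low values, where 0 of 18194 genes passed (949 higher and 612 lower at an unadjusted p under 0.05) and Zic2 had adjusted p = 0.210. Without the intensity trend Zic2 did not pass either (limma adjusted p = 0.0847). With arrays centred on their median they were 6.79, and Zic1 and Zic5 passed beside Zic2 (0.0125 and 0.0204). Where either VCN array was left out of the additive fit, which leaves the age difference of LSO and MNTB, Zic1 rose by 1.29 (limma adjusted p = 0.00143 to 0.00159) and Zic2 by 1.40 (0.00129 to 0.00148).

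Oligodendrocyte genes moved in the same direction in this term. Of 7 tested, 2 passed as lower and 0 as higher (6 and 0 at an unadjusted p under 0.05), with a median of -1.94, beside 0.03 for all genes. Those that passed were Ermn at -3.02 and Mog at -2.50, both genes of myelinating cells. Unlike Zic2, both were higher at P14 in VCN as well. The summed linear signal of the list was 17267 in VCN at P3, where LSO had 7688 and MNTB 10049, and 40124 to 44438 at P14, with 0 or 1 of the 7 genes within or below background on an array. At P3 it was thus highest in VCN, and its part in the Zic values was not tested. Of 13 other factors of the rhombic lip lineage tested, 0 passed in this term, with a median of -0.31. At an unadjusted p under 0.05 limma gave 5 lower and 1 higher, beside 546 lower and 832 higher of all 12959 genes. The largest difference was that of Pou4f1, at -3.66 (limma adjusted p = 0.0531).

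**Figure D4:**
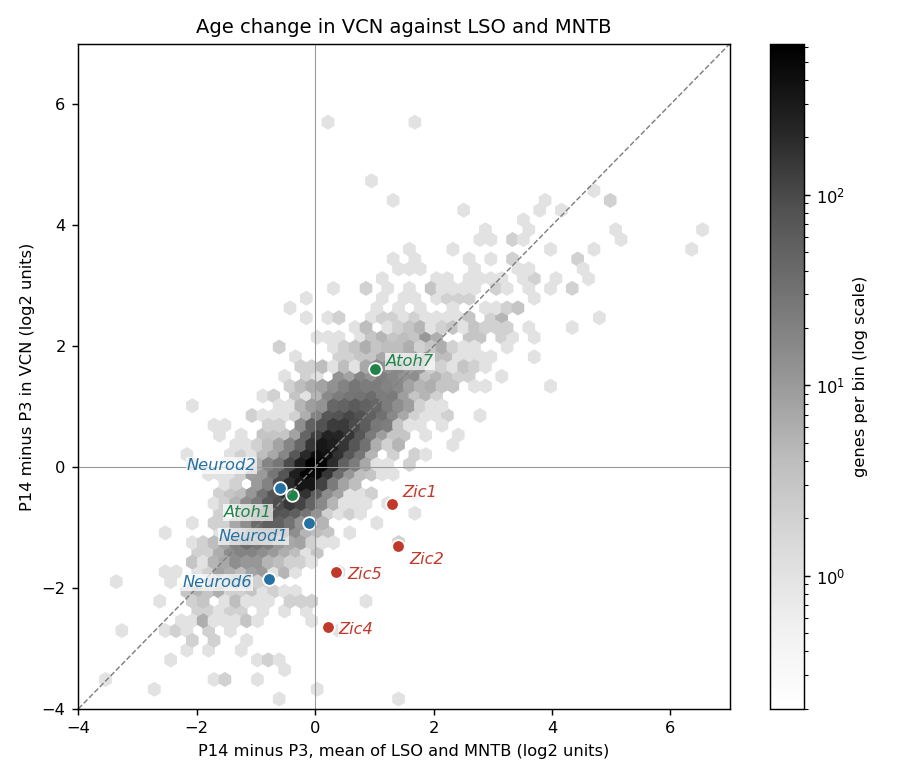
P14 minus P3 in VCN against the mean of that difference in LSO and MNTB, both in log2 units, with the 12959 genes tested as grey bins (log colour scale) and the 9 factors as points, and a dashed line of equal change. The 4 Zic genes lie below the line, with vertical distances of -1.91 to -2.85, while the Neurod and Atoh genes lie within 1.08 of it.

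Zic genes are also made outside neurons, and genes of the meninges and choroid plexus were therefore read on these arrays. Of 13 meningeal genes 7 were tested. With age 6 rose, beside 23.4% of all genes, and 0 fell (0 also at an unadjusted p under 0.05). The median was 1.01, beside 0.03 for all genes. For VCN minus the mean of LSO and MNTB 0 were higher and 1 lower, beside 0.34% and 0.301% of all genes. At an unadjusted limma p under 0.05 these were 1 and 1, and the median was 0.23, beside -0.03 for all genes. The collagen gene Col3a1 was at 5.35, 5.57 and 5.57 in VCN, LSO and MNTB at P3, and at 8.81, 8.74 and 8.41 at P14. The summed linear signal of the 13 genes was 1198 to 1548 at P3 and 2750 to 3324 at P14, and the ages did not overlap. On each array 1 to 6 of the 13 genes were within or below background. Foxc1, which meningeal development needs, was at 4.36, 4.57 and 5.36 in VCN, LSO and MNTB at P3, with VCN alone within background. At P14 it was at 5.49, 5.88 and 5.59, so that MNTB was nearly level. The meningeal sum was thus higher at P14 in all 3 nuclei, while the 4 Zic genes were lower in VCN, and Zic1 and Zic2 were higher, like that sum, in LSO and MNTB. Of 8 choroid plexus genes 2 were tested. With age 0 rose and 0 fell (0 and 0 at an unadjusted p under 0.05), beside 23.4% and 17.7% of all genes. The summed signal of the 8 genes was 6568 in VCN at P14, 974 in VCN at P3 and 313 to 360 elsewhere. On an array 0 to 3 of the 8 genes were within or below background. In VCN at P3 the highest gene of the choroid plexus list was Otx2, at 9.34, with the others at 6.93 or below. In VCN at P14 it was Ttr, at 12.58, with the others at 7.14 or below. The part of either tissue in the Zic values was not tested. At P3 Ttr was at 6.93 in VCN, 6.71 in LSO and 6.61 in MNTB. The choroid plexus sum was then above that of LSO and MNTB in VCN, with Otx2, its highest gene there, counted in it. At P3 alone the members' excess in VCN ran from 3.35 for Atoh7 to 5.74 for Zic1, leaving out Atoh1.

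Most tested factors of the rhombic lip lineage fell with age. Of 21 genes in that list with a probe set 13 were tested, and 10 fell and 0 rose (11 and 0 at an unadjusted p under 0.05), beside 17.7% of all genes that fell and 23.4% that rose. The median was -0.91, beside 0.03 for all genes. Lhx2, a homeobox gene of dorsal hindbrain neurons, had a difference of -1.34 (limma adjusted p = 0.00820), and Insm1, a zinc finger gene of neuronal progenitors, of -1.40 (0.0213), which did not pass without either MNTB array (adjusted p = 0.0786 to 0.0791). Lhx2 was at 9.28 and 7.23 in VCN, at 6.93 and 5.73 in LSO and at 5.29 and 4.52 in MNTB, the same order of nuclei as Neurod2. For VCN minus the mean of LSO and MNTB, Lhx2 had 2.64 and Pax6, which granule cell precursors need, 1.39 (limma adjusted p = 0.0166 and 0.0141). That is 2 of 13 higher and 0 lower (6 and 1 at an unadjusted p under 0.05), beside 0.34% of all genes higher and 0.301% lower, or 0.64% in either direction. The median of the list was 0.42, beside -0.03 for all genes. Lhx2 did not pass for VCN without either LSO array (limma adjusted p = 0.0908 to 0.115), nor Pax6 without LSO at P3 or MNTB at P14 (0.0514 to 0.0645).

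Eomes, a T-box gene of unipolar brush cells, was at 9.64 in VCN at P3 and at 6.54 at P14. In LSO and MNTB it was at 3.49 to 4.16, within background, so that VCN was higher by at least 5.16 at P3 and by at least 2.07 at P14. Otx2, placed here in the choroid plexus list, was at 9.34 and 6.52 in VCN and at 3.04 to 3.34 elsewhere. Otx2 was thus highest at P3, whereas Ttr was highest at P14. Pou4f1, a POU domain gene, was at 10.22 in VCN at P3 and at 6.49 to 7.71 on the other 5 arrays. Uncx was at 6.60 and 6.34 in VCN and at 4.55 to 4.82 in LSO and MNTB. All 4 were high on the VCN array of P3, and Uncx alone was about as high in VCN at P14.

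Of 16 genes of granule and unipolar brush cells with a probe set 14 were tested. For VCN 6 were higher and 1 lower at an unadjusted limma p under 0.05, beside 549 and 756 of all 12959 genes. The median was 0.33, beside -0.03 for all genes. After adjustment 1 was higher and 0 lower, beside 0.34% and 0.301% of all genes. This was Cbln1, the synaptic organiser of granule cells, which was at 12.07 and 11.91 in VCN and at 7.81 to 8.93 elsewhere (3.45 ± 0.22 higher, limma adjusted p = 0.00591). Gabra6, a GABA receptor gene of mature granule cells, was at 3.61 in VCN at P3, within background, and at 7.97 at P14, beside 3.26 to 4.37 in the other nuclei. Slc17a7, a vesicular glutamate transporter gene of mature granule cells, was at 4.83 and 8.50 in VCN and at 3.93 to 4.83 elsewhere. Gabra6 and Slc17a7, both below the filter and not tested, were higher in VCN at P14. The 4 Zic genes and Neurod1 were lower in VCN then. Grin2c, of the same list, was at 4.65 in VCN at P3 and at 6.48 at P14. It also rose there, but lay below LSO and MNTB at each age. The part of mature cells in the VCN values was not tested. With age 2 genes of the list rose and 4 fell, beside 23.4% and 17.7% of all genes.

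**Figure D5:**
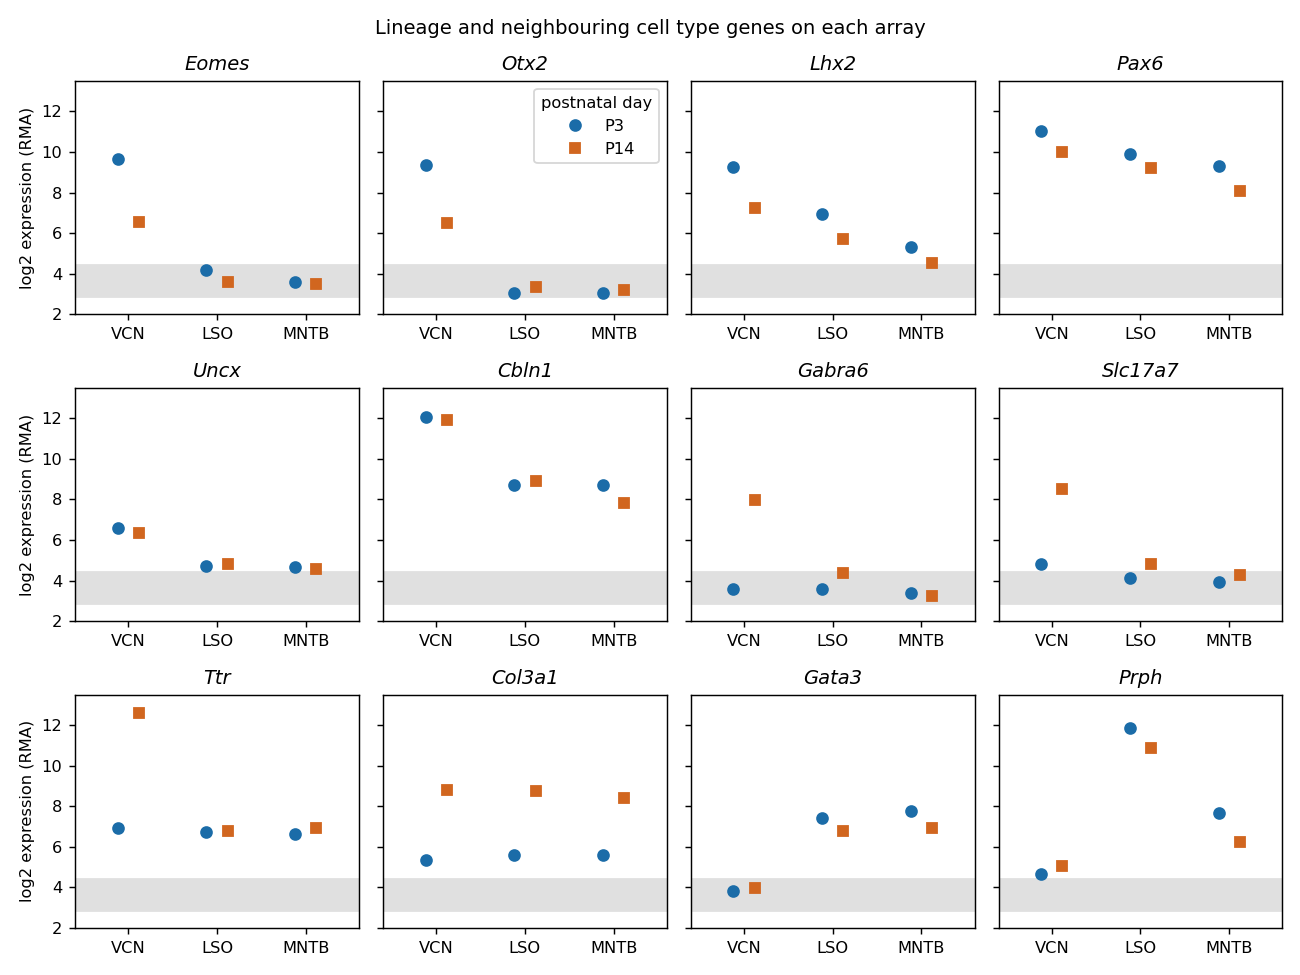
Log2 expression of 12 genes of the lineage and of neighbouring cell types by nucleus, with circles for P3 and squares for P14, 1 array per point, and the background range of 2.84 to 4.42 shaded. Eomes, Otx2, Lhx2, Uncx and Cbln1 are highest in VCN, Ttr is high on the VCN array of P14 alone, Col3a1 is higher at P14 in all nuclei, and Gata3 and Prph are lowest in VCN.

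Markers of other cells that a dissected sample could hold were read in the same way. Of 5 Purkinje cell genes tested, 0 passed for VCN in limma. At an unadjusted p under 0.05, 2 were higher and 1 lower, beside 549 and 756 of all 12959 genes. The summed linear signal of the 5 genes was 7489 and 7874 in VCN. It was 8244 in MNTB at P14, and 6476 to 7042 in LSO and in MNTB at P3. The nuclei thus overlapped only through MNTB at P14, where Calb1 was at 11.03, beside 7.16 to 8.71 on the other arrays. Pcp4 was the highest gene on every array, at 12.28 to 12.57. Of 6 genes of inner ear ganglion neurons tested, 2 were lower in VCN, namely Prph and Gata3, beside 0.301% of all genes. In the other direction 0 were higher (1 at an unadjusted p under 0.05), beside 0.34%. Of 9 genes of progenitors and the cell cycle 7 fell with age and 0 rose (7 and 0 at an unadjusted p under 0.05), beside 17.7% of all genes that fell, while 0 passed for VCN in limma or at an unadjusted p under 0.05.

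Most inhibitory lineages arise outside the Atoh1 domain. Of 10 tested factors of these lineages, 3 were lower and 1 was higher in VCN, beside 0.301% and 0.34% of all genes. Their median was -0.82, beside -0.03 for all genes. Gata3, a zinc finger gene of inhibitory neurons, was at 3.84 and 3.96 in VCN, within background, and at 6.76 to 7.75 in LSO and MNTB, a difference of at least 2.74 (limma adjusted p = 0.00591). Tal1, its bHLH partner, was at 4.06 and 4.93 in VCN and at 6.60 to 7.86 in the others (adjusted p = 0.0397), and Lhx5, a LIM homeobox gene, had a difference of -1.09 (0.0412). Skor1, a corepressor gene, was higher in VCN by 2.21 (limma adjusted p = 0.00672) and, like Neurod2, was lower in MNTB than in LSO, at -2.27 (0.0195). Gata3 did not pass without LSO at P3 (limma adjusted p = 0.0551), Tal1 with any one LSO or MNTB array left out (0.0744 to 0.158) and Lhx5 with any one of the 6 left out (0.0544 to 0.189). Skor1 did not pass between MNTB and LSO when any one array of these nuclei was left out (0.113 to 0.169). With age 6 of the 10 fell and 0 rose (7 and 0 at an unadjusted p under 0.05), beside 17.7% of all genes that fell.

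Of the members' relatives, Neurod4 had a probe set at 5.73 in VCN at P3 and at 2.93 to 3.99 on the other arrays, within background. Its 2 other sets were at 2.19 to 2.65 throughout. Atoh8 was between 6.11 and 6.80 on all arrays. Of 8 proneural factors with a probe set Neurog1 alone was above the filter, at 5.63 to 5.97. Nhlh1, a bHLH gene of newborn neurons, was at 4.47 in VCN at P3 and within background elsewhere, at 2.98 to 3.39. The dimer partners and inhibitors of bHLH factors were 11 genes, all tested. For VCN 0 passed in limma. At an unadjusted p under 0.05, 1 was higher and 4 lower, beside 549 and 756 of all 12959 genes. With age 3 fell and 1 rose, beside 17.7% and 23.4% of all genes. Hes5, a Notch target that represses proneural genes, had a difference of -1.80 (limma adjusted p = 0.000537), and Hey1, another Notch target, of 0.38 (0.00977).

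Profiles were compared by the Euclidean distance between values centred on each gene's mean over the 6 arrays, without a test. The members were chosen for their excess in VCN, which makes up most of such a profile, so their nearness to one another follows from the choice. To Zic1 the nearest were the members Zic2 at 1.42, Neurod1 at 1.72 and Zic5 at 1.79 log2 units. Next came Dynlrb2, a dynein subunit gene, at 1.83, the member Neurod2 at 2.23, Bnc2, a zinc finger gene, at 2.25 and the member Atoh7 at 2.33. Cbln1 at 2.43, Prdm8 at 2.75 and Ccdc153 at 3.04 followed. To Neurod2 the nearest were Neurod1 at 1.08, Bnc2 at 1.35, Cbln1 at 1.51 and Zic5 at 1.52, then Nrn1, Pax3 and Prdm8 at 1.83 to 1.97. To Atoh7 the nearest were Cbln1 at 1.92, Calml4 at 2.16 and Dynlrb2 at 2.28. The members Zic2 at 2.30, Neurod1 at 2.32 and Zic1 at 2.33 came next, then Ccdc153 at 2.41 and Bnc2 at 2.50. All these genes were higher in VCN than in LSO and MNTB at both ages, and the distances share the same 6 arrays.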

How the data were processed

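Each of 6 Affymetrix Mouse 430 2.0 arrays held RNA of 1 pool, extracted by RNeasy columns (Qiagen), DNase-treated, and amplified (Nugen WT Ovation Pico) from 20 ng, per the labels' protocols. What the authors deposited is 1 log2 value per probe set and array, made by RMA, per the submitters' processing notes. The sources used here do not give the RMA version or scan dates. Batches were therefore not tested. The small number of arrays limits the precision.

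Of 45101 probe sets 34958 named 1 gene in the platform annotation, 932 several and 9147 none, and 64 were controls. RefSeq matched 34754 of those with 1 gene. Each gene is given by the set with the highest mean over all arrays (sets ending in _x_at only where there was no other). The 12959 genes with a mean at or above the 40th percentile (5.57) entered limma 3.58.1 (R 4.3.3) with additive terms for nucleus and age and an intensity trend, 2 residual and 3.95 prior degrees of freedom, two-sided tests and Benjamini-Hochberg adjustment over all 12959 genes, at 0.05. Of the 9 members 6 entered the tests, having passed the filter with the help of their level in VCN. The steps were tested on simulated data. There the added age term for VCN recovered few of the changes put in and made a false call, and its calls varied strongly with the draw. Values within background are floored at 4.47 where a bound is given. All members could be named, and for each gene list up to 4 genes by the age and 4 by the VCN difference, and for 3 members the 5 nearest profiles. Lhx5 and Foxc1 were named after their values were seen. The members and lists were chosen with earlier results of these data known.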

Additional observations from a re-analysis of the deposited data

Results flagged for a closer look

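For the 4 Zic genes the age difference in VCN stood apart from that in LSO and MNTB. For Zic2 the test of the difference itself passed with -2.71 log2 units (limma adjusted p = 0.0380). The test was added after the values were seen and used the arrays that chose the genes. It did not pass without the filter on low values (0.210) or without the intensity trend (limma adjusted p = 0.0847), and on simulated data the test recovered few changes and made a false call. For Zic1 at -1.91 and Zic5 at -2.10 every nucleus outside VCN had the opposite sign to VCN. The test of the difference did not pass (limma adjusted p = 0.0531 and 0.0596). For Zic5 the opposite signs held for 1 of 3 probe sets, and the median over them gave -1.75 (limma adjusted p = 0.276). Zic4 at -2.85 had opposite signs as well, and its difference was not tested in the filtered fit. The values of Zic4 in LSO and MNTB were at or near background. On the VCN array of P14 the choroid plexus gene Ttr was at 12.58, beside 6.93 in VCN at P3, and its part in these values was not tested.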

How the results depend on the processing

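For age, 1 member was higher and 1 lower. The count of higher members was 0 without the filter on low values, with the median over probe sets, without an intensity trend and with age alone, and the count of lower members was 3 without the filter and 0 with age alone. For MNTB minus LSO, the median over probe sets gave 1 higher gene and 0 lower members. Leaving out 1 array gave 1880 to 2574 genes higher and 1263 to 2139 lower for age (1882 and 1263 with MNTB at P3 left out, 1880 and 1296 with MNTB at P14 left out), with 0 to 2 members higher and 0 to 1 lower. For MNTB minus LSO it gave 0 to 18 genes higher, 4 to 81 lower and 0 to 3 members lower. For VCN minus the other nuclei it gave 9 to 99 higher and 7 to 90 lower. The age difference of Zic5 then ran from -0.74 to 0.36, the latter without either VCN array. MNTB minus LSO ran from -1.44 to 0.024 for Zic2, the latter with LSO at P14 left out, and from -1.55 to 0.26 for Atoh7, the latter with MNTB at P14 left out. The VCN excess was 2.18 for Neurod2 and 1.88 for Atoh7 with the median over probe sets. The term for age in VCN, added after the values were seen, gave 5 genes higher and 12 lower, and 1 member. It gave 0, 0 and 0 without the filter, 1, 1 and 0 without the trend, 36, 48 and 3 with centred arrays and 42, 52 and 3 with a further quantile normalization. Higher genes were 13 with the median over probe sets and 8 with floored values. Leaving out arrays leaves no residual degrees of freedom for that term. The causes were not tested. The additive fit already sets the ages beside each other within a nucleus, and the fit with age alone is the one without that pairing.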

Other observations

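For the added age term of VCN 17 genes passed, Zic2 among them. Among the 12 that were lower than in LSO and MNTB was Crh, the gene of corticotropin-releasing hormone, at -5.19, and the myelin genes Ermn at -3.02, Mal at -2.85 and Mog at -2.50. Ttr at 5.46 and Inhba, an activin subunit gene, at 3.80 were among the 5 that were higher. These genes were chosen after their values were seen, and the term's calls depend on the processing as given above.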
